A study of Rattus norvegicus with 10 samples.

Results

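Among the 3334 genes in the deposited table of rat lens capsule RNA, 6 genes of insulin receptor and phosphoinositide signalling were chosen by gene name. They are the insulin receptor Insr, the PI3K regulatory subunits Pik3r1 and Pik3r3, the lipid phosphatases Inppl1 and Mtmr3, and the lipid kinase Pip5k1b. Pik3r1 had the firmest change of the set and was down-regulated after cold treatment, Pik3r3 was also down-regulated, and Mtmr3 was up-regulated with the authors' size factors but not under scalings built on the listed genes. The changes were small, and the calls for the other 3 genes missed the threshold. Every sample came from a different male rat (Sprague-Dawley, 6 weeks old) and pooled the capsules of both eyes, with 5 rats per group. In the Hypothermia Group the lenses were isolated and kept in Hibernate-A medium at 4°C for 8 h before the capsule was taken. In the Normal Group the capsule was taken directly, with no medium and no waiting time, so cold and time outside the animal cannot be told apart. The capsule carries the lens epithelial cells on its inner face.

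As background, insulin or an insulin-like growth factor bound to its receptor leads to tyrosine phosphorylation of adaptor proteins, which recruit class I PI3K through the SH2 domains of its regulatory subunit. The kinase makes the lipid PIP3 in the plasma membrane, where AKT is activated, and AKT in turn keeps FOXO transcription factors out of the nucleus and raises mTORC1 activity. In the lens, insulin-like growth factors and PI3K signalling are known for their roles in epithelial cell survival and in fibre cell differentiation. Pip5k1b makes PI(4,5)P2, the substrate of class I PI3K. Inppl1, also called SHIP2, removes the 5-phosphate of PIP3. Mtmr3, a myotubularin, removes the 3-phosphate of PI3P, a lipid of endosomes and autophagy.

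The upstream sequences of 4 of the genes are shown, those of 3 genes with lower means and that of Pip5k1b, which had a higher mean. A relation between these sequences and the direction of change was not tested. RefSeq promoter sequences of the GRCr8 build held entries for 5 of the 6 genes, not for Mtmr3, and the 250 bases before the RefSeq start are given here, 5′ to 3′. Capitals mark matches to any of 5 motifs searched on both strands, which were chosen with the values known. These were the GC box GGGCGG, a FOXO site TGTTTAC, the TATA box TATAAA, the E-box CACGTG and a heat shock element GAANNTTC. No matches overlap in the sequences printed.
Pik3r1 (chr2:34697661-34697910, minus strand): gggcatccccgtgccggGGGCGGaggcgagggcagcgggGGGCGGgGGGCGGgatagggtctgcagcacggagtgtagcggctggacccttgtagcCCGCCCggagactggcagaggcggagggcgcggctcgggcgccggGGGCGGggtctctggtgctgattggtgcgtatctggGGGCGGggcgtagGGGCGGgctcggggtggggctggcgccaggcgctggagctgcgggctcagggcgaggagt
Pik3r3 (chr5:134938356-134938605, plus strand): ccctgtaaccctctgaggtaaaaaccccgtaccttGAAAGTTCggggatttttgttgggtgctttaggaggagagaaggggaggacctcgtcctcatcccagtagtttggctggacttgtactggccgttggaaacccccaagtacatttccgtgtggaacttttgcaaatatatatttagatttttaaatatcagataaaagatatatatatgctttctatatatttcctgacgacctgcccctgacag
Insr (chr12:6128804-6129053, minus strand): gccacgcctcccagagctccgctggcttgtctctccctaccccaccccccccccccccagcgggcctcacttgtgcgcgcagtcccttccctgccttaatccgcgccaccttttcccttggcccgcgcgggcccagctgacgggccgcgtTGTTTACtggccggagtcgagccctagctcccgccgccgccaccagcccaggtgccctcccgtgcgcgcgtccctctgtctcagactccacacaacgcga
Pip5k1b (chr1:231610093-231610342, minus strand): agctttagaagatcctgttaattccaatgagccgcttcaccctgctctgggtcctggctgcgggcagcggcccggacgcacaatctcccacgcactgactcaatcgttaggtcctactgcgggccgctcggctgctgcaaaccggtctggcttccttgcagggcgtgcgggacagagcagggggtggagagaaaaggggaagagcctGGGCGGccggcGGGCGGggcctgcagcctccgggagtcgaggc
The Pik3r1 sequence held 7 GC boxes and had a GC content of 77.2%, above 97.8% of the 33469 promoters in the RefSeq table, whose median was 51.2%. GC boxes were present in 30.5% of all these promoters. Pip5k1b held 2 GC boxes, and 1 of 2 RefSeq entries for Inppl1 held 3 of them and the other 2. Pik3r3 had no GC box, a GC content of 43.2% and 1 match to the heat shock element, a motif found in 7.23% of promoters. Insr had no GC box but 1 FOXO match, from 100 to 94 bases before the start, where 3.21% of promoters held this motif. No match to the TATA box or the E-box was found before these genes, against 12.9% and 5.59% of all promoters. A match is no evidence of binding.

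The table held a list of genes already selected for a difference between these same rats, since the smallest ratio between the 2 groups' mean normalized counts was 0.25 on the log2 scale in either direction. Membership in it fixes the direction of a gene, and the tests below describe sizes and spreads rather than giving independent evidence of a change. The listed genes summed to between 4792595 and 12415121 counts per rat, which are parts of the libraries. Counts were divided by the authors' size factors to give normalized counts, and p-values were adjusted over 17000 genes, a round number that stands for all expressed genes. The threshold for calling a gene up- or down-regulated was an adjusted p below 0.05 together with a log2FoldChange beyond 0.25. Of the 3222 genes tested, 20.5% were down-regulated and 52.3% up-regulated by this rule, 72.9% together. All 6 signalling genes were tested. Of them, 2 were down-regulated, 1 was up-regulated and 3 were not called, so the called share of the set lay below that of the list. The groups did not overlap for 4 of the 6 genes, against 58.5% of the tested genes. Their median log2FoldChange was -0.27, and that of all tested genes was 0.36.

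Cell type markers moved with the groups. Of 19 lens fibre markers 17 were listed, and all 17 were up-regulated. Their summed FPKM (fragments scaled by gene length and the authors' size factors) ranged from 260240 to 578043 after cold treatment and from 27027 to 173606 without it. None of these markers was at 0 in any rat. Of 8 lens epithelium markers 3 were listed, and all were lower. Pax6 was down-regulated with a log2FoldChange of -0.26 (standard error, SE, 0.08, edgeR adjusted p = 0.0498), while Gja1 and Slc2a1 were not called. The summed FPKM of these 3 ranged from 822 to 892 after cold treatment and from 1004 to 1171 without it. Of 10 pigment and ciliary epithelium markers 5 were listed (summed FPKM 5.11 to 10.4 against 8.25 to 37.5), and Rpe65 and Tyr were at 0 in 1 Hypothermia rat each. Of 8 stromal markers 3 were listed (5.79 to 30.2 against 14.6 to 184.8), of 7 vessel markers 2 (7.31 to 11.1 against 12.7 to 16.6), and of 8 blood and immune markers 0. In such bulk samples fewer cells of a type and less RNA per cell cannot be told apart. The part of these shifts in the signalling genes was not tested. The scaling on Pax6 given further on cannot decide it, because Pax6 is a single gene of the same selected list and was itself lower.

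Pik3r1 encodes p85α, the regulatory subunit that holds and stabilises the catalytic subunit of class I PI3K and brings it to activated receptors. Normalized counts of Pik3r1 were 1366, 1358, 1556, 1557 and 1267 in Normal rats 1 to 5 and 875, 1040.2, 782, 1082 and 901 in Hypothermia rats 1 to 5. Every Hypothermia rat lay below every Normal rat. The mean was 936 ± 123 (SD, n = 5) after cold treatment and 1421 ± 130 (SD, n = 5) without it. The log2FoldChange was -0.60 (SE 0.10, Benjamini-Hochberg adjusted p = 0.00573 in the quasi-likelihood test of edgeR), which is a level 0.659 times that of the Normal Group. Its p-value ranked 247 among the 3222 genes tested. Pik3r1 was also among the genes the study itself picked from these rats. The study further reported lower Pik3r1 protein and a matching change by RT-qPCR on separately pooled capsules. Neither is part of the data used here. The call held in all 10 fits that left out 1 rat each, with log2FoldChanges from -0.66 to -0.54. In the Rnor_6.0 build, which all gene positions here use, the gene spans bases 31745088 to 31826867 of chromosome 2 on the minus strand.

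Pik3r3 encodes p55γ, a shorter regulatory subunit with the same SH2 domains. On chromosome 5 from 135074297 to 135142488, it had normalized counts of 1502, 1342, 1462, 1789.8 and 1565 in Normal rats 1 to 5. The Hypothermia rats had 1099.7, 1263, 807, 1264 and 1111. The groups were again separate, with rat 3 of the Hypothermia Group far below the other 4. The log2FoldChange was -0.47 (SE 0.12, edgeR adjusted p = 0.0281), or 0.724 times the Normal level. The call did not hold in 4 of the 10 fits, those without Hypothermia rat 1 or 5 or Normal rat 4 or 5, where the adjusted p reached 0.0759 (edgeR).

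**Figure D1:**
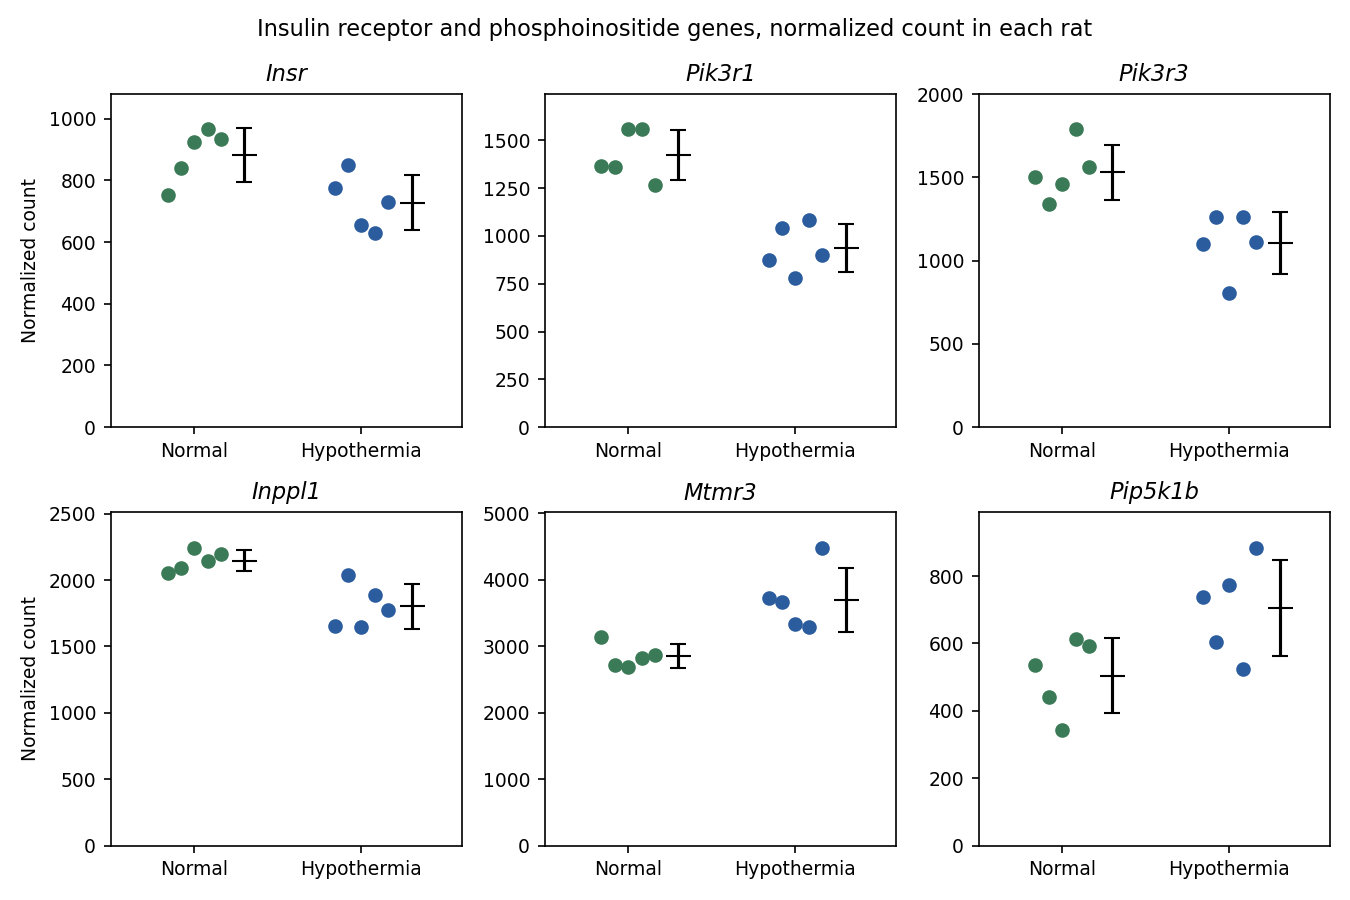
Normalized counts (vertical axes, starting at 0) of the 6 genes in each of the 5 Normal and 5 Hypothermia rats; points are rats in replicate order, and bars give the mean ± SD. Pik3r1 and Pik3r3 are lower in every Hypothermia rat, Inppl1 is lower by a small margin, Mtmr3 is higher in every Hypothermia rat, and Insr and Pip5k1b overlap.

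Insr, the insulin receptor tyrosine kinase, lies on chromosome 12 from 1680957 to 1816414. It was counted at 752, 840.2, 925, 966 and 934 in Normal rats 1 to 5 after normalization, and at 777, 851, 654, 629.7 and 729.5 in Hypothermia rats 1 to 5. The groups overlapped, because Normal rat 1 lay below Hypothermia rats 1 and 2. The log2FoldChange of -0.28 (SE 0.10) did not pass the threshold (edgeR adjusted p = 0.0986). Without Normal rat 1 it was -0.33 and passed (edgeR adjusted p = 0.0443), and it also passed without Hypothermia rat 2 (-0.34, edgeR adjusted p = 0.0417).

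Inppl1, the SHIP2 phosphatase that acts on the product of PI3K, is on chromosome 1 from 166899894 to 166912524. Normal rats 1 to 5 had 2053, 2092, 2244, 2147 and 2199 normalized counts, the narrowest spread of the 6 genes. Hypothermia rats 1 to 5 had 1653, 2041, 1646, 1890.2 and 1777. The groups did not overlap, although Hypothermia rat 2 lay just under Normal rat 1. The log2FoldChange was -0.25 (SE 0.08), and with an adjusted p of 0.0526 from edgeR it was not called. Without Hypothermia rat 2 it was -0.30 and passed (edgeR adjusted p = 0.0206).

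Mtmr3 lies on chromosome 14 from 84701559 to 84820415. Its normalized counts were 3140.4, 2714, 2695, 2829 and 2862 in Normal rats 1 to 5 and 3719.8, 3663, 3339, 3283 and 4482 in Hypothermia rats 1 to 5. Each Hypothermia rat lay above each Normal rat, and rat 5 was the highest. The log2FoldChange was 0.38 (SE 0.10, edgeR adjusted p = 0.0258), or 1.30 times the Normal level. It was no longer called in 5 of the 10 fits, those without Hypothermia rat 1 or Normal rat 2, 3, 4 or 5, where the adjusted p was at most 0.0647 (edgeR). With TMM scaling it stood at 0.09 without a call, and relative to Actb or to listed-gene totals its sign turned (-0.19 and -0.86).

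Pip5k1b, on chromosome 1 from 242168462 to 242441247, had the widest spread. Normal rats 1 to 5 had 536, 441, 343, 613 and 591 normalized counts, and Hypothermia rats 1 to 5 had 738, 604, 772, 525 and 884. The groups overlapped, with Hypothermia rats 2 and 4 inside the range of the Normal rats. Its log2FoldChange of 0.48 (SE 0.18) was not called (edgeR adjusted p = 0.107), and it stayed without a call in each fit that left out 1 rat. Its mean was 704.6 ± 142 (SD, n = 5) after cold treatment and 505 ± 112 (SD, n = 5) without it.

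The spread between rats was larger than counting error for every gene. Counting alone gives an error of 1.73% to 4.11% on a single rat's count of average size for these genes. The coefficient of variation of the normalized counts ranged from 3.61% (Inppl1) to 22.3% (Pip5k1b) in the Normal Group and from 9.29% (Inppl1) to 20.1% (Pip5k1b) in the Hypothermia Group. Hypothermia rats 2 and 4 had the highest Pik3r1, Pik3r3 and Inppl1 of their group and the lowest Pip5k1b, but Insr was highest in rat 2 and lowest in rat 4, and Mtmr3 was in the middle in rat 2. The same rats had the lowest summed FPKM of lens fibre markers of that group, 260240 and 305394, where Hypothermia rat 5 had 578043. Among the Normal rats the one with the lowest fibre marker level, rat 3, had the highest Inppl1 but a Pik3r3 below the group mean. That rat also had the lowest Mtmr3 and Pip5k1b, a Pik3r1 of 1556 close to the highest, and Insr in the middle. Normal rat 1, with the highest fibre marker level, 173606, had the lowest Insr and Inppl1 and the highest Mtmr3. Its Pik3r1, Pik3r3 and Pip5k1b were in the middle of the group. Whether the fibre marker level takes part in the differences between rats of a group was not tested.

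The order of the levels differed between the groups. Per length, in FPKM, the Normal Group had Pik3r3 highest at 45.0 ± 4.86 (SD, n = 5), then Inppl1 at 38.2 ± 1.38 (SD, n = 5) and Mtmr3 at 28.9 ± 1.81 (SD, n = 5). Pik3r1 followed at 20.6 ± 1.88 (SD, n = 5), Pip5k1b at 10.5 ± 2.34 (SD, n = 5) and Insr at 7.62 ± 0.749 (SD, n = 5). The rats' values overlapped between Pik3r3 and Inppl1 and between Pip5k1b and Insr, and the other neighbours were separate. After cold treatment Mtmr3 had the highest mean, 37.5 ± 4.85 (SD, n = 5), with Pik3r3 at 32.6 ± 5.47 (SD, n = 5) and Inppl1 at 32.0 ± 2.97 (SD, n = 5), and these 3 overlapped. Below them Pip5k1b at 14.7 ± 2.95 (SD, n = 5) and Pik3r1 at 13.5 ± 1.78 (SD, n = 5) overlapped too, while Insr at 6.28 ± 0.778 (SD, n = 5) was apart. Mtmr3 was above Inppl1 in 4 of 5 Hypothermia rats and in 0 of 5 Normal rats, and Pip5k1b was above Pik3r1 in 3 of 5 and 0 of 5. Each of these pairs joins a gene listed as higher to one listed as lower, so the direction of these shifts was given by the choice of the genes.

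Proportions within a rat do not depend on how rats are scaled to each other. Pik3r3 made up 71.8%, 71.1%, 67.7%, 70.3% and 71.5% of the summed FPKM of both regulatory subunit genes in Hypothermia rats 1 to 5. In Normal rats 1 to 5 it made up 69.1%, 66.7%, 65.6%, 70.0% and 71.5%. The ranges overlapped, and the difference of 1.91 percentage points did not pass (exact permutation test, two-sided p = 0.183). No shift between the 2 subunits was detectable with 5 rats a group. The summed FPKM of Pik3r1 and Pik3r3 lay between 35.0 and 52.8 in Hypothermia rats and between 59.0 and 75.1 in Normal rats. Unlike the share, this sum depends on the scaling between rats, and both genes were listed as lower to begin with.

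Of the 15 pairs of genes, 8 join a lower gene to a higher one, so that a difference between the groups was given by the choice of the genes. The other 7 pairs join genes listed in the same direction, and none of these passed when adjusted among themselves, a family chosen after seeing the data, while 2 had an unadjusted p below 0.05 in the exact permutation test. The lowest p was that of Pik3r1 against Inppl1. The mean log2 ratio of their counts was -0.95 ± 0.10 (SD, n = 5) after cold treatment against -0.60 ± 0.13 (SD, n = 5) in Normal rats. It differed by -0.35, without overlap (p = 0.00794 by a two-sided exact permutation test, the least that 5 rats against 5 can give, 0.0556 when adjusted over the 7 pairs and 0.0170 over all 15, where the 8 fixed pairs lower it). A single pair at that least p could not pass among 7 pairs, however wide its separation. Expressed per length, Pik3r1 stood at 0.422 ± 0.0290 (SD, n = 5) of the Inppl1 FPKM after cold treatment and at 0.538 ± 0.0455 (SD, n = 5) without it. For Insr against Inppl1 the difference was -0.02 on the log2 scale (exact permutation test, two-sided adjusted p = 0.825). Insr against Pik3r1 differed by 0.33 and Pik3r3 against Inppl1 by -0.22, neither past the threshold (exact permutation test, two-sided adjusted p = 0.130 for both). For Mtmr3 against Pip5k1b it was -0.12 (exact permutation test, two-sided adjusted p = 0.611).

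**Figure D2:**
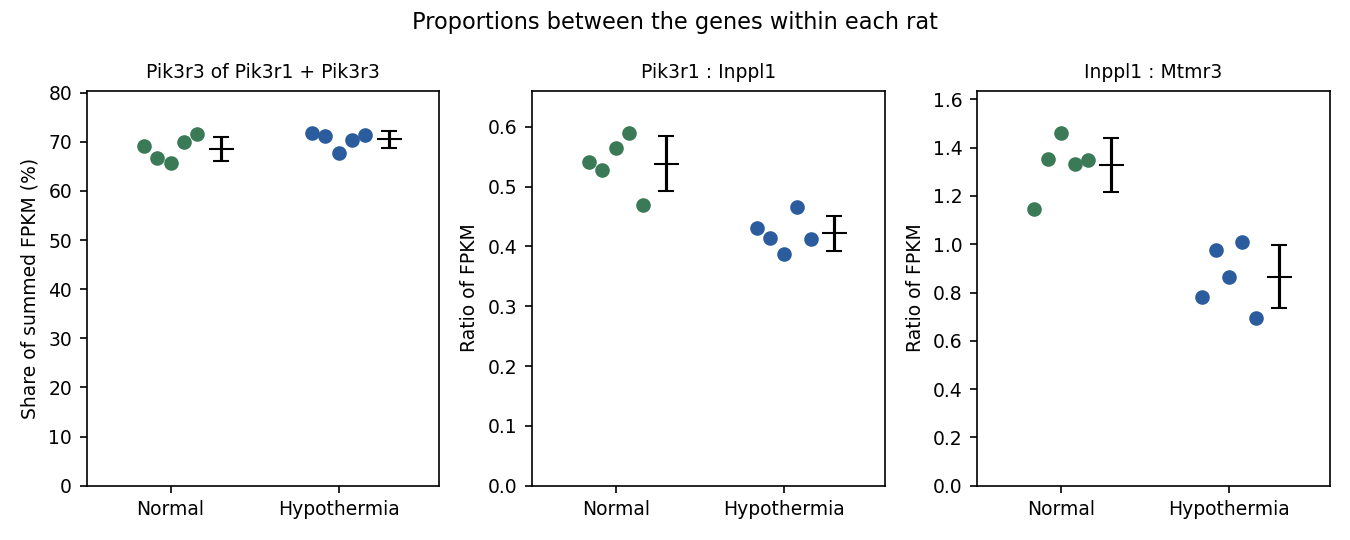
Proportions within each rat: the share of Pik3r3 in the summed FPKM of Pik3r1 and Pik3r3 (percent), the FPKM ratio of Pik3r1 to Inppl1 and that of Inppl1 to Mtmr3; points are rats in replicate order, bars give the mean ± SD, and all vertical axes start at 0. The share of Pik3r3 overlaps between the groups, while Pik3r1 is lower against Inppl1 and Inppl1 lower against Mtmr3 in every Hypothermia rat.

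How the rats are scaled to each other set the size of each change. TMM scaling, which is built on the listed genes, moved the log2FoldChange of the median gene by -0.29. Under it Insr and Inppl1 were down-regulated with log2FoldChanges of -0.57 and -0.54 (edgeR adjusted p = 0.0148 and 0.00691). Mtmr3 was then at 0.09 and no longer called. Counts relative to Actb moved the median gene by -0.58, and Mtmr3 and Pip5k1b then had log2FoldChanges of -0.19 and -0.10, neither called. Against the total of the listed genes, the median gene moved by -1.23, and all 6 genes were then down-regulated. Each scaling moved all 6 genes by a similar amount, so their order was nearly fixed.

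A scaling on the lens epithelium marker Pax6 was added after the data were seen. It gives each gene relative to Pax6 and moved the median gene by 0.26. Pik3r1 remained down-regulated, with a log2FoldChange of -0.35 (SE 0.10, edgeR adjusted p = 0.0392). Pik3r3 was at -0.21 (SE 0.12) without a call (edgeR adjusted p = 0.730). Insr was at -0.02 (SE 0.10), and the value of Inppl1, 0.00 (SE 0.08), turned its sign. Mtmr3 at 0.64 (SE 0.12, edgeR adjusted p = 0.00195) and Pip5k1b at 0.75 (SE 0.19, edgeR adjusted p = 0.0177) were up-regulated. Among all tested genes, 2044 were up-regulated under this scaling and 29 down-regulated.

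**Figure D3:**
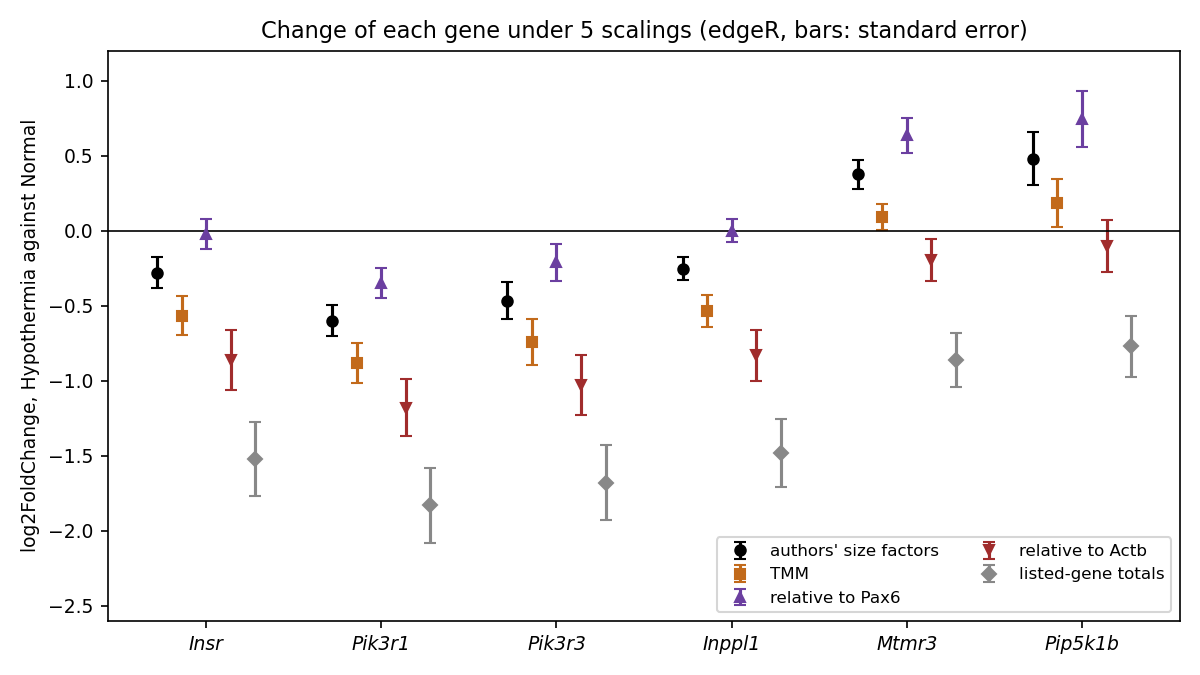
log2FoldChange of each gene (vertical axis, Hypothermia against Normal, edgeR) under 5 scalings, with bars for the standard error. Pik3r1 is below 0 under all 5, from -1.83 with listed-gene totals to -0.35 relative to Pax6, while Mtmr3 and Pip5k1b lie above 0 under 3 of them and below 0 under the other two.

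The wider pathway was read from lists of 171 genes in 9 role groups, of which 37 were in the table. These 37, the 6 genes included, comprised 23 with lower and 14 with higher values, 12 down-regulated and 11 up-regulated, beside 20.5% and 52.3% of all tested genes. Their median log2FoldChange was -0.28, and that of all tested genes 0.36. Near the receptor, the insulin-like growth factor 2 receptor Igf2r, which carries its ligand to lysosomes, stood at -0.29 (SE 0.11) and did not pass. Neither of the 2 listed receptor genes passed. All 3 listed adaptors had higher means, and 2 were up-regulated, where 2053 of the 3222 tested genes were higher and 52.3% up-regulated. Grb2, which links receptors to Ras, had a log2FoldChange of 0.42 (SE 0.09, edgeR adjusted p = 0.0104). Shc1 at 0.36 was not called. The directions near the receptor were thus mixed, and with counts relative to Actb or to the listed-gene totals none of the 37 genes was up-regulated.

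Of the class I PI3K list of 11 genes, Pik3r1 and Pik3r3 were the 2 in the table, and the catalytic subunit genes were not analysed here. Pik3c2a, a class II PI3K, was down-regulated by a small amount, with a log2FoldChange of -0.27 (SE 0.08, edgeR adjusted p = 0.0457). Among lipid kinases and enzymes that supply phosphatidylinositol, 5 of 22 were listed and 2 were down-regulated, beside 20.5% of all tested genes. Pikfyve, which makes PI(3,5)P2 from the PI3P that Mtmr3 removes, was at -0.27 (SE 0.07, edgeR adjusted p = 0.0231), and Cds2, which makes the CDP-diacylglycerol used in phosphatidylinositol synthesis, at -0.54 (SE 0.13, edgeR adjusted p = 0.0156).

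Of 19 genes for 5- and 4-phosphatases, 4 were listed. Ocrl, a 5-phosphatase of PI(4,5)P2 whose loss causes Lowe syndrome with congenital cataract, was down-regulated at -0.29 (SE 0.08, edgeR adjusted p = 0.0345). Its FPKM was 3.33 ± 0.279 (SD, n = 5) after cold treatment and 4.08 ± 0.226 (SD, n = 5) without it, and the groups did not overlap. Inpp4a, a 4-phosphatase of PI(3,4)P2, was down-regulated at -0.40 (SE 0.12). Inpp5a, a 5-phosphatase of soluble inositol phosphates, was up-regulated at 0.77 (SE 0.15, edgeR adjusted p = 0.00731). Of 17 genes on the 3-phosphatase list 2 were in the table, and both were up-regulated, as were 52.3% of all tested genes. Beside Mtmr3 this was Mtmr10, a myotubularin-related protein held to lack catalytic activity, at 0.69 (SE 0.13, edgeR adjusted p = 0.00656).

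Of 33 AKT and mTOR effector genes 8 were in the table, of which 5 were up-regulated and 2 down-regulated, close to the 52.3% and 20.5% of all tested genes. These calls used the authors' size factors and depend on them. Of all 37 pathway genes 11 were up-regulated with these factors, 5 with TMM scaling and 0 relative to Actb. The translation repressor Eif4ebp1, an mTORC1 substrate, had a log2FoldChange of 0.93 (SE 0.18, edgeR adjusted p = 0.00823), its FPKM being 28.1 ± 8.56 (SD, n = 5) after cold treatment and 14.7 ± 2.19 (SD, n = 5) without it. Rheb, the GTPase that activates mTORC1, was at 0.46 (SE 0.09, edgeR adjusted p = 0.00687) and the kinase gene Gsk3a at 0.33 (SE 0.07, edgeR adjusted p = 0.00975). The down-regulated genes were Phlpp2, an AKT phosphatase, at -0.32 (SE 0.09), and Rictor, a subunit of mTORC2, at -0.31 (SE 0.09). Xiap, an inhibitor of caspases, was at -0.32 (SE 0.10) and was not called. The study, with its own test, reported Xiap as down-regulated in RNA and protein, with a matching change by RT-qPCR.

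Phospholipase C and inositol phosphate genes made up 10 of the 37, from a list of 30. Of them 9 had lower means, 3 of which were down-regulated, and 1 was up-regulated. Among all tested genes 36.3% had lower values, 20.5% were down-regulated and 52.3% up-regulated. The IP3 receptor gene Itpr2 had a log2FoldChange of -0.74 (SE 0.14, edgeR adjusted p = 0.00809) and the phosphatase gene Inpp1 one of -0.66 (SE 0.18, edgeR adjusted p = 0.0297). Ip6k2 was at -0.27 (SE 0.07). The up-regulated gene was the kinase Itpk1, at 0.98 (SE 0.15, edgeR adjusted p = 0.00471), whose FPKM was 18.1 ± 3.14 (SD, n = 5) against 9.21 ± 1.78 (SD, n = 5).

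Of 18 genes known as targets of FOXO factors, which insulin signalling restrains, 8 were in the table. Lower means were found for 7 of them, and 4 were down-regulated, beside 36.3% and 20.5% of all tested genes. Among these were the cyclin Ccng2 at -0.56 (SE 0.08, edgeR adjusted p = 0.00459), Klf15 at -0.53 (SE 0.13) and the repressor Bcl6 at -0.50 (SE 0.11). Gadd45a, a gene of the DNA damage response, was up-regulated at 0.70 (SE 0.12, edgeR adjusted p = 0.00540). The median of the 8 was -0.52. Other factors also act on these genes, and FOXO activity was not measured.

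**Figure D4:**
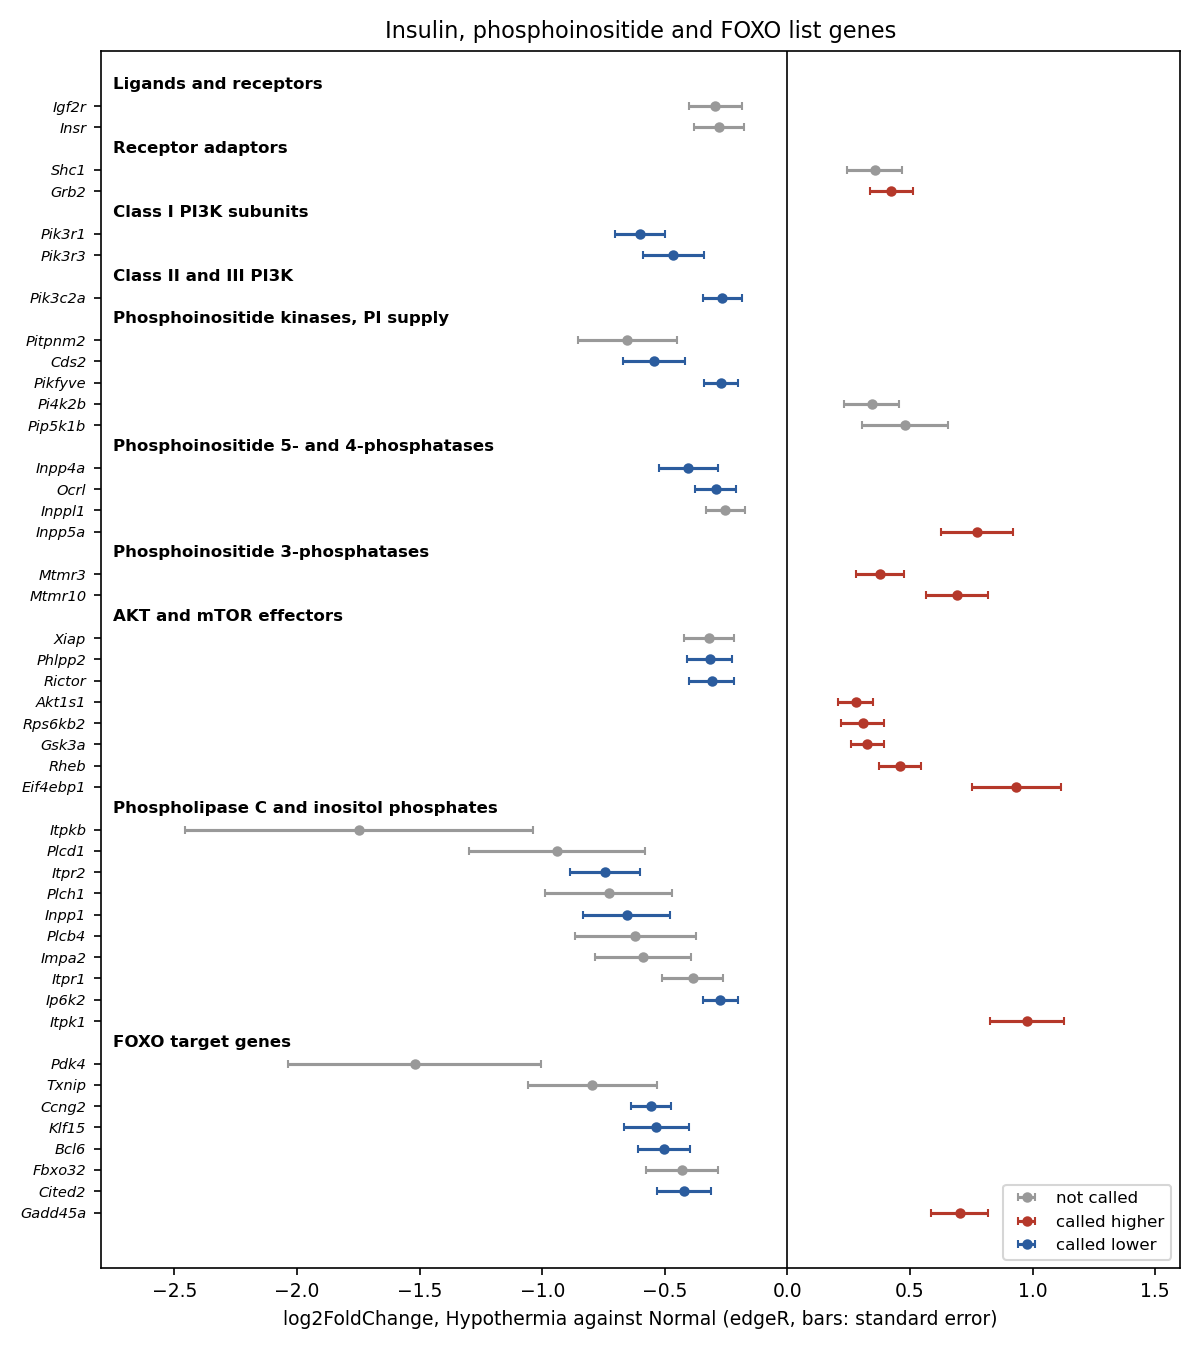
log2FoldChange (horizontal axis, Hypothermia against Normal, edgeR, bars for the standard error) of the genes reported here from the 9 signalling role groups and from FOXO targets; colours mark down-regulated, up-regulated and uncalled genes. Class I PI3K, phospholipase C and FOXO target genes lie mostly below 0, adaptors and 3-phosphatases above 0, and AKT and mTOR effectors on both sides. Among all tested genes 36.3% had lower values.

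The genes with the most similar profiles were found by the root mean square difference of log2 normalized counts over the 10 samples, each gene centred on its own mean, among 2895 genes. Nearest to Pik3r1 were Nmrk1 (0.09), Gstt3 (0.10) and Myo5a (0.11), where the median gene was at 0.54. Pik3r3 lay closest to Dlg2 (0.07), Ttc7a (0.08) and Zfp652 (0.08). Insr was matched by Mysm1 (0.06) and Baz2b (0.07) and Inppl1 by Resf1, Sin3a and Msantd4 (0.05 to 0.06). For Mtmr3 these were Mxd1, Flywch1 and Ino80e, all at 0.07, and for Pip5k1b they included Nudt4 (0.14) and Snx24 (0.16). The measure includes the difference between the groups, so genes with a nearly equal log2FoldChange are close by construction.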

How the data were processed

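RNA-seq was analysed for lens capsules of 5 Hypothermia and 5 Normal rats. Per the labels and the study's methods, paired-end reads were aligned to Rnor_6.0 with HISAT2 2.0.5, counted per gene with featureCounts 1.5.0-p3 and compared with DESeq2 1.16.1, and the annotation release is not given in the sources used here. The deposited counts are whole reads per gene without normalization. The authors also deposited FPKM, made from counts and gene length and holding the same size factors. The deposited columns of group means are a signal on the count scale, the authors' mean normalized counts. They gave the size factors by least squares (0.744 to 0.980 in the Hypothermia Group, 1.08 to 1.26 in the Normal Group). Columns with the authors' own comparison (log2 fold change, p and adjusted p) were not used. Strand use in counting is not given in the sources used here, and no other listed gene overlapped the 6 genes.

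The test was the quasi-likelihood test of edgeR 4.0.16 (R 4.3.3) on counts, with filterByExpr, robust estimates of the dispersion, the size factors as scaling and the group as sole term. The filter kept 3222 genes. The standard error is the log2FoldChange divided by the root of F. Adjustment over 17000 genes replaces the number tested, because the table is a selected list. The procedure was tested on simulated data. Exact permutation tests (scipy 1.17.1) were two-sided. No 2 samples of a group agreed within sampling noise. Alternatives used DESeq2 1.42.0 and limma 3.58.1 (log2 of FPKM with a pseudocount of 1 or 0.1), other scalings, filters, thresholds, a replicate block and leaving out each rat. The 6 genes, the gene lists and the tests were chosen with earlier results of these data known. Genes were named by rule: the 6 genes, up to 3 called genes with the largest changes in each direction of each list, and the 3 genes most alike in profile whose normalized counts averaged 50 or more. Uncalled list genes beyond this rule (Igf2r, Shc1, Xiap) were named after their values were seen. Of the genes this rule names, 3 are not reported here. Figures were drawn with matplotlib 3.10.9.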

Additional observations from a re-analysis of the deposited data

How the results depend on the processing

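Pik3r1 was down-regulated under every alternative except the fold threshold of 1 on the log2 scale, where its value of -0.60 was too small, as were those of Pik3r3 (-0.47) and Mtmr3 (0.38). At that threshold 0 of the 6 genes and 0 and 1 of the 37 listed pathway genes were called lower and higher, with 61 and 331 of all genes. At an adjusted p under 0.01, Pik3r3 (-0.47) and Mtmr3 (0.38) lost their calls, and 1 and 0 of the 6 genes, 2 and 6 pathway genes and 86 and 667 of all genes were called lower and higher.

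Scalings built on the listed genes lowered all 6 values, and under each of them 0 of the 6 genes was up-regulated. Insr, Inppl1 and Mtmr3 were at -0.57, -0.54 and 0.0898 with TMM, with either adjustment, at -0.56, -0.53 and 0.0941 with TMM without lens fibre genes, at -0.59, -0.56 and 0.0676 with median-of-ratios factors or DESeq2's own, and at -0.60, -0.57 and 0.0568 with upper-quartile factors, and each time 4 of the 6 genes were down-regulated. Pathway genes called lower and higher were 21 and 5 with TMM, with or without lens fibre genes, 23 and 5 with TMM adjusted over the tested genes and with DESeq2, and 21 and 4 with median-of-ratios and upper-quartile factors. All genes called lower and higher were 1100 and 633 (TMM), 1167 and 927 (TMM adjusted over the tested genes), 1100 and 643 (without lens fibre genes), 1101 and 601 (median of ratios), 1106 and 546 (upper quartile) and 1232 and 763 (DESeq2). With listed-gene totals Insr, Inppl1, Mtmr3 and Pip5k1b were at -1.52, -1.48, -0.86 and -0.77, and 6 genes, 33 pathway genes and 2398 of all genes were called lower against 0, 0 and 57 higher. Relative to Actb they were at -0.86, -0.83, -0.19 and -0.10, with 4, 22 and 1139 called lower against 0, 0 and 196 higher. Relative to Pax6, an alternative chosen after seeing the data, Pik3r3, Inppl1 and Pip5k1b were at -0.21, 0.0006 and 0.75. There 1, 1 and 29 were called lower against 2, 14 and 2044 higher.

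With adjustment over the tested genes only, Insr (-0.28), Inppl1 (-0.25) and Pip5k1b (0.48) were called. Then 4 and 2 of the 6 genes, 23 and 14 pathway genes and 1169 and 2052 of all genes were called lower and higher. Inppl1 was also called by DESeq2 with the authors' size factors (-0.25, with 19 pathway genes lower) and by limma with a pseudocount of 0.1 (-0.26). With a pseudocount of 1 Inppl1 was at -0.2499 (limma adjusted p = 0.0422), which fell short of the 0.25 threshold alone, and 7 pathway genes were called lower. The cause of the changed counts of pathway genes was not tested. Same-numbered rats are different animals, and their deviations correlated between -0.19 and 0.24, with 0 of 5 rats matching their own number best. With the replicate block Pik3r3 (-0.48) and Mtmr3 (0.37) were not called, and 1 and 0 of the 6 genes, 3 and 6 pathway genes and 134 and 809 of all genes were called lower and higher. Other filters and robust = FALSE left the calls of the 6 genes as they were.

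With each rat left out in turn, log2FoldChanges ranged from -0.34 to -0.23 (Insr), -0.66 to -0.54 (Pik3r1), -0.52 to -0.37 (Pik3r3), -0.30 to -0.22 (Inppl1), 0.30 to 0.42 (Mtmr3) and 0.37 to 0.57 (Pip5k1b). Between 1 and 4 of the 6 genes were called lower and between 0 and 1 higher, from 4 to 13 pathway genes lower and from 8 to 12 higher, and from 300.0 to 664 of all genes lower and from 1077 to 1720.0 higher. The Pik3r3 share differed by 1.17 to 2.64 percentage points, and 7 to 11 of 15 pairs passed, against 9 with all rats and 0 when only the 7 same-direction pairs were adjusted together, an alternative chosen after seeing the data. Of the 15 pairs, 8 join a lower gene to a higher one. Their difference was given by the choice of the genes, so these counts are no measure of stability. Depth limits little here, since the lowest count of any of the 6 genes in a rat was 431.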
